A study of Mus musculus with 4 samples.

Results

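A set of 36 genes of the extracellular matrix was examined in mouse embryonic stem cells (ESCs) with and without the chromatin remodeler SNF2L, out of 24594 genes in the count table. The genes were taken by symbol from a list of collagens, laminins, other matrix proteins and matrix enzymes that had been drawn up with results of the same comparison in view. Their differences between genotypes are therefore given as a description, without p-values. Poly(A) RNA was sequenced from 2 libraries of wild-type (WT) cells and 2 libraries of Snf2l knockout cells, all of the same 129S6/SvEvTac ESC line, untreated and described as duplicates of 1 batch. By the study's methods the cells were grown on gelatin with serum and leukemia inhibitory factor, and knockout lines were made by CRISPR–Cas9 editing. The labels give 1 knockout line, so that genotype and clone cannot be told apart. They do not say whether the duplicates came from separate cultures, and the spread between them may be technical.

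The matrix is the network of secreted proteins on which cells sit. Basement membranes are thin sheets in which laminin trimers and type IV collagen form separate networks, joined by nidogens and by proteoglycans such as perlecan. They are among the first matrices of the mouse embryo, and ESCs and the primitive endoderm make much of their laminin. The interstitial matrix, built on fibrillar collagens, fibronectin and microfibrils, is chiefly a product of fibroblasts and other mesenchymal cells. Matricellular proteins such as tenascin-C bind this scaffold and cell surface receptors without being structural themselves, and proteases, their inhibitors and lysyl oxidases cut, protect or crosslink it.

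The libraries held between 13771642 and 15608803 counts, and the 36 genes took between 0.345% and 0.470% of them. The targeted gene Smarca1, which codes for SNF2L, had 620 and 626 WT counts against 37 and 31 knockout counts. All 10 markers of ESCs that were examined were detected, led by the pluripotency factor Pou5f1 at 1262 CPM in WT libraries and 1319 CPM in knockout libraries, where CPM are counts scaled to a library total of 1000000. Of these markers Klf4 was called higher and Zfp42, which lies on chromosome 8, lower. On chromosome 8 the median log2 fold change of the knockout against WT was -0.51 over 754 genes, and 93.8% of them had a negative value, while the median over all 13840 tested genes was 0.00020. Of the 36 genes, Col4a1, Col4a2 and Mmp2 lie on chromosome 8, and they are also given relative to its median.

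Of the 36 genes, 32 passed the filter on low counts. The other 4, Col6a1, Col6a2, Lum and Dcn, had between 0 and 13 counts in any library. Col3a1, Bgn, Tnc, Postn and Lox passed only through the knockout libraries, so that their presence among the 32 already implies a higher level there. A gene was called where the quasi-likelihood test of edgeR, fitted over all genes and adjusted by the Benjamini-Hochberg method, gave an adjusted p-value under 0.05. Calls were made for 12 of the 32, of which 11 were higher in the knockout and 1 was lower, where 9.21% of all tested genes were called, 4.0% as higher and 5.21% as lower. A differentially expressed gene (DEG) had an absolute log2 fold change over 1 at an adjusted p-value under 0.01. There were 5 of them, all higher, where 0.990% of all tested genes were DEGs, 0.571% as higher and 0.419% as lower. In 21 of the 32 both knockout libraries lay above both WT libraries by CPM, in 5 both lay below, and in 6 the genotypes overlapped, where 25.2% of all tested genes lay above and 25.3% below. The median log2 fold change over the 32 was 0.37. These shares follow from how the genes were chosen and carry no weight of their own.

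**Figure D1:**
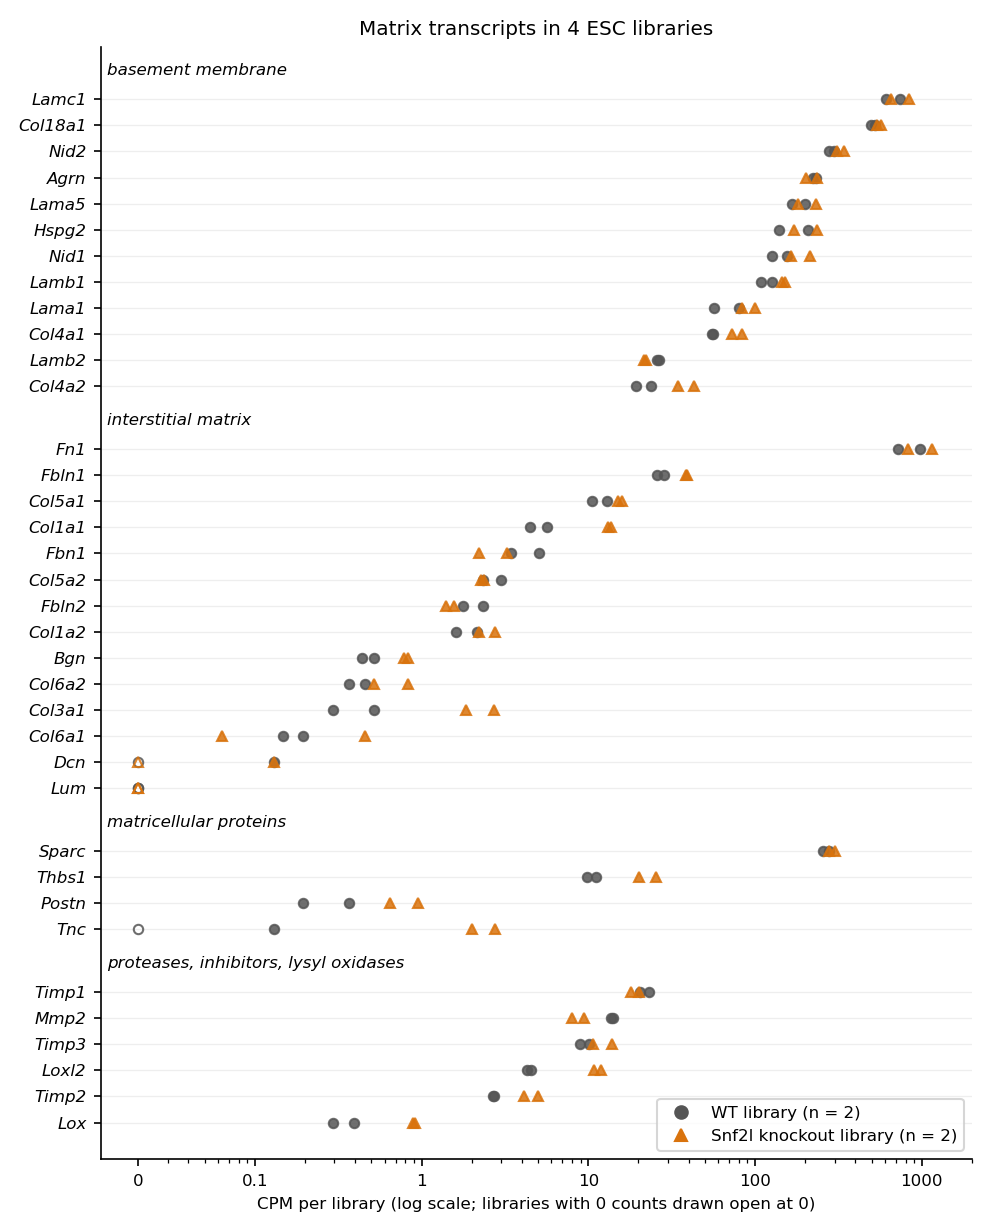
Level of each of the 36 genes in each library, in CPM on a logarithmic axis, grouped by role and with one symbol per genotype. Lamc1, Col18a1, Nid2, Fn1 and Sparc lay at the high end in all 4 libraries, while Tnc, Col3a1, Postn and Lox lay near or below 1 CPM in WT.

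The most abundant of the 36 genes were basement membrane genes together with Fn1 and Sparc, although other basement membrane genes were far lower. Per gene length, in TPM (counts divided by gene length and scaled to a total of 1000000), the highest WT levels were those of Lamc1, the γ1 chain shared by most laminins, at 306 ± 46.8 TPM (SD, n = 2, as for all values below), Fn1 (fibronectin) at 272 ± 62.4 TPM, Col18a1 (the source of endostatin) at 271 ± 4.67 TPM and Sparc, a collagen-binding matricellular protein, at 263 ± 9.84 TPM. These 4 do not differ beyond their spread. Nid2 (nidogen-2) followed at 208 ± 14.2 TPM, then Agrn (agrin), a heparan sulfate proteoglycan, at 91.7 ± 3.80 TPM and Timp1, an inhibitor of metalloproteinases, at 91.5 ± 8.77 TPM. Nid1 lay at 76.1 ± 12.3 TPM, which overlaps the level of Timp1 by its spread, and the α5 chain gene Lama5 lay at 59.9 ± 8.62 TPM. At the other end of the basement membrane group, Col4a1 lay at 29.7 ± 0.777 TPM and Lama1 at 26.4 ± 6.83 TPM, which overlap by their spread. Lamb2 lay at 16.1 ± 0.595 TPM and Col4a2 at 12.1 ± 1.96 TPM. Among matrix-related genes outside the 36, Spp1 (osteopontin) was more abundant than any of them, at 1088 ± 0.293 TPM in WT. By contrast the fibrillar collagen genes Col1a1, Col1a2 and Col3a1 lay at 2.89 ± 0.512, 0.578 ± 0.107 and 0.154 ± 0.0587 TPM, and no count of Lum was found in any library. In bulk RNA, fewer cells of a type and less RNA per cell cannot be told apart, so that these low levels may belong to all cells or to few.

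**Figure D2:**
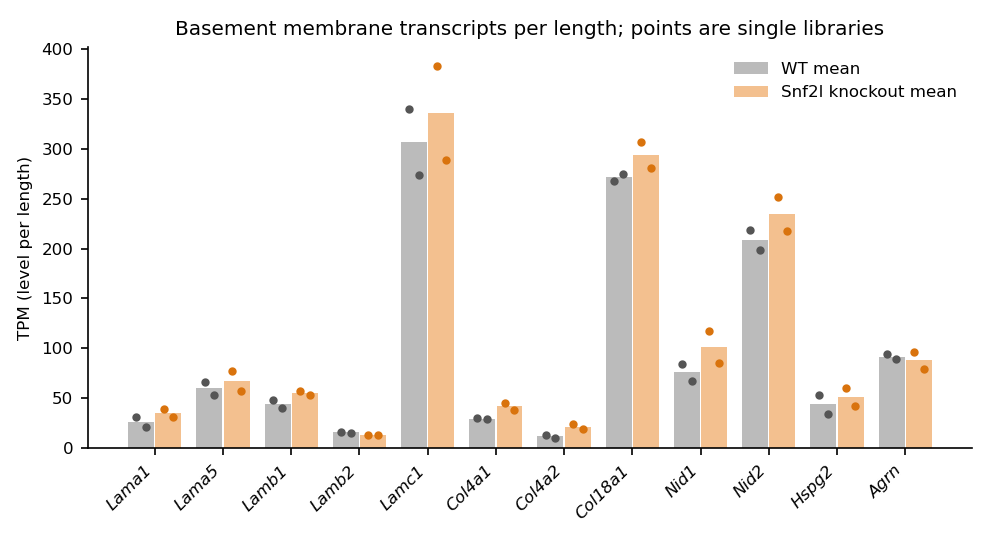
Length-corrected level (TPM) of the 12 basement membrane genes in each of the 4 libraries. Lamc1, Col18a1 and Nid2 stood highest in both genotypes, Col4a2 and Lamb2 lowest, and the knockout libraries of Col4a1 and Col4a2 lay above those of WT.

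Among the 12 basement membrane genes, all of which were tested, Col4a1, Col4a2, Lamb1 and Nid1 were called higher in the knockout and 0 were called lower. Over all tested genes 4.0% were called higher and 5.21% lower. Of the 10 genes of this group that lie outside chromosome 8, 2 were called. No gene of this group was a DEG. A positive log2 fold change was found in 10 of the 12. The median of the group was 0.20, which ranged from 0.095 to 0.38 when each library was left out in turn. In the plot of log2 fold changes by role, the values of this group ran from -0.25 to 0.86.

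**Figure D3:**
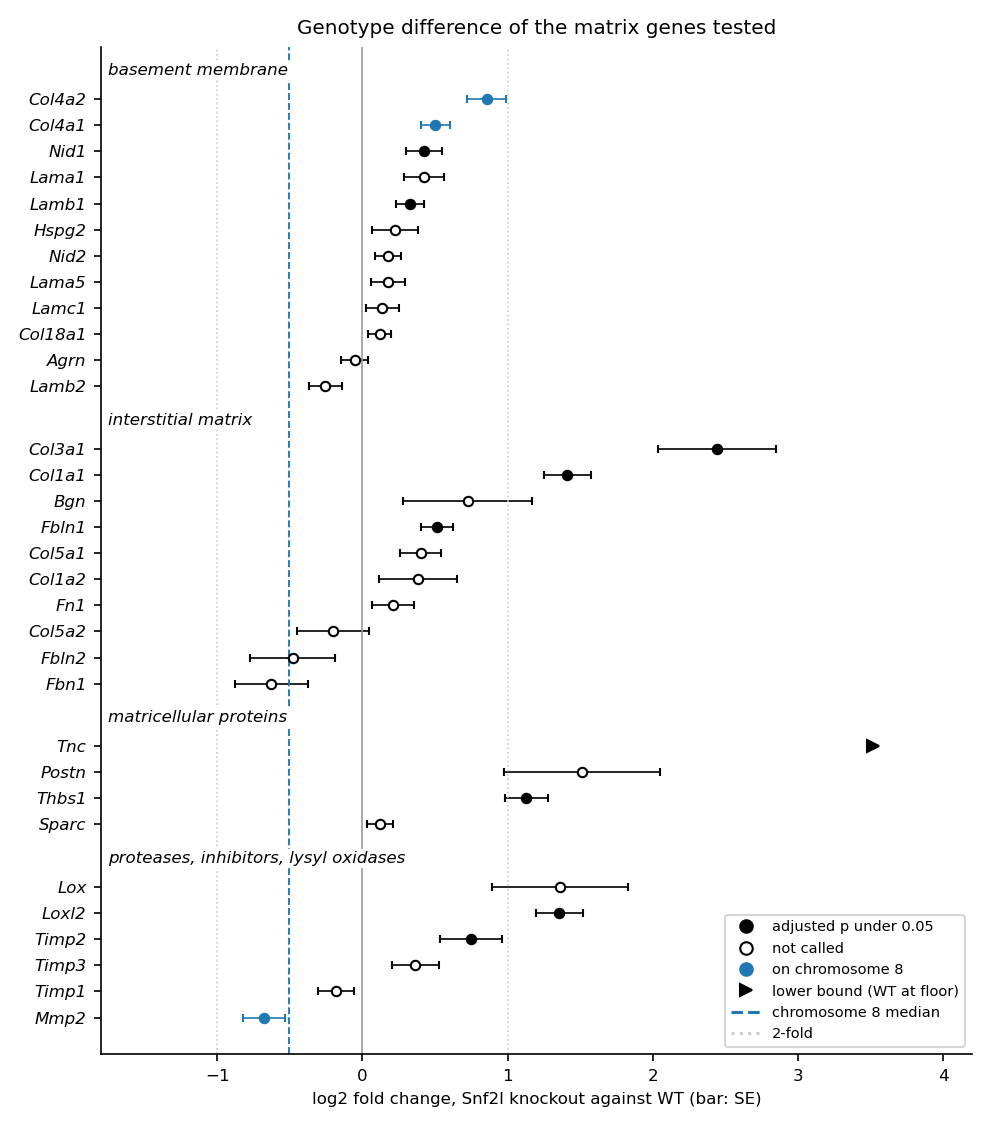
Log2 fold change of the knockout against WT for the tested matrix genes, grouped by role, with bars for the standard error. Called genes are filled, genes of chromosome 8 are blue, the solid line marks 0, the dashed line the chromosome 8 median at -0.51 and the dotted lines a 2-fold difference. The fold change of Tnc is computed against the floor of 3 counts and is a lower bound.

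Type IV collagen forms the network of every basement membrane, and its main trimer is made of 2 α1 chains, from Col4a1, and 1 α2 chain, from Col4a2. Their genes lie head to head on chromosome 8, Col4a1 at 11198423 to 11312889 on the minus strand and Col4a2 at 11312805 to 11449287 on the plus strand (GRCm38.p6, the assembly that mm10 represents). The transcript starts that the RefSeq promoter table uses, 11312826 for Col4a1 and 11312805 for Col4a2, are 21 bases apart. The 300-base windows around the starts, from 250 bases before to 50 bases after, are shown because they share 78 bases, written in capitals, which each gene reads on its own strand.

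Col4a1, chr8:11312777-11313076, minus strand: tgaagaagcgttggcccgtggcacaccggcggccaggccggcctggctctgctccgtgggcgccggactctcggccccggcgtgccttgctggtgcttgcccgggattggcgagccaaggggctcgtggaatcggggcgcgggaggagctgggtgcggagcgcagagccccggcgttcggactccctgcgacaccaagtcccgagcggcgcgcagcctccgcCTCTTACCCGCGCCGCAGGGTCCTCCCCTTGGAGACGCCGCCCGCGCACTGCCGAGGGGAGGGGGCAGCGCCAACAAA
Col4a2, chr8:11312555-11312854, plus strand: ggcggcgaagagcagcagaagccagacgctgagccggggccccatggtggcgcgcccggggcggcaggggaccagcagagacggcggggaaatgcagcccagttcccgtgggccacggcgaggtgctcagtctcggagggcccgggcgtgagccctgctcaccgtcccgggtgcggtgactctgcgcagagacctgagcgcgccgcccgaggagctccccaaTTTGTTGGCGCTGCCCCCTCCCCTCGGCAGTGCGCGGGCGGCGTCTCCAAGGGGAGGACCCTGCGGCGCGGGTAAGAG

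The windows hold 74.0% and 73.7% G and C, against a median of 52.7% over all 32851 promoter windows of the RefSeq table. Both hold the letters CCAAT, which 37.4% of all windows hold on either strand, and GGGCGG, which 35.7% of all windows hold. A match describes these letters and is not a bound site.

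Col4a1 (Entrez gene 12826) had 758 and 842 WT counts against 1313 and 1121 knockout counts. Its level was 55.3 ± 0.529 CPM in WT against 78.3 ± 7.6 CPM in knockout cells, a log2 fold change of 0.50 (SE 0.10). Both knockout libraries lay above both WT libraries, on a chromosome where 7 of the 754 tested genes (0.928%) were called higher and 453 (60.1%) were called lower. Col4a2 (Entrez gene 12827) had 322 and 295 WT counts against 675 and 529 knockout counts. Its log2 fold change was 0.86 (SE 0.135), from 21.5 ± 3.12 to 38.7 ± 6.08 CPM. The genotypes did not overlap for either gene.

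Against the chromosome 8 median, the log2 fold change of Col4a1 was 1.01 higher and that of Col4a2 was 1.36 higher. Of the 754 tested genes of the chromosome, 7 had a higher log2 fold change than Col4a1 and 2 had a higher one than Col4a2. When the median shift of chromosome 8 was taken out of the fit, both genes passed the DEG threshold. The distance from the chromosome 8 median ranged from 0.89 to 1.10 for Col4a1 and from 1.18 to 1.52 for Col4a2 when each library was left out. Per length, the ratio of Col4a2 to Col4a1 was 0.445 and 0.367 in the WT libraries against 0.539 and 0.495 in the knockout libraries. The ratio was higher in both knockout libraries, but with 2 libraries against 2 the smallest p-value of an exact two-sided test is 0.333, and none was run.

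**Figure D4:**
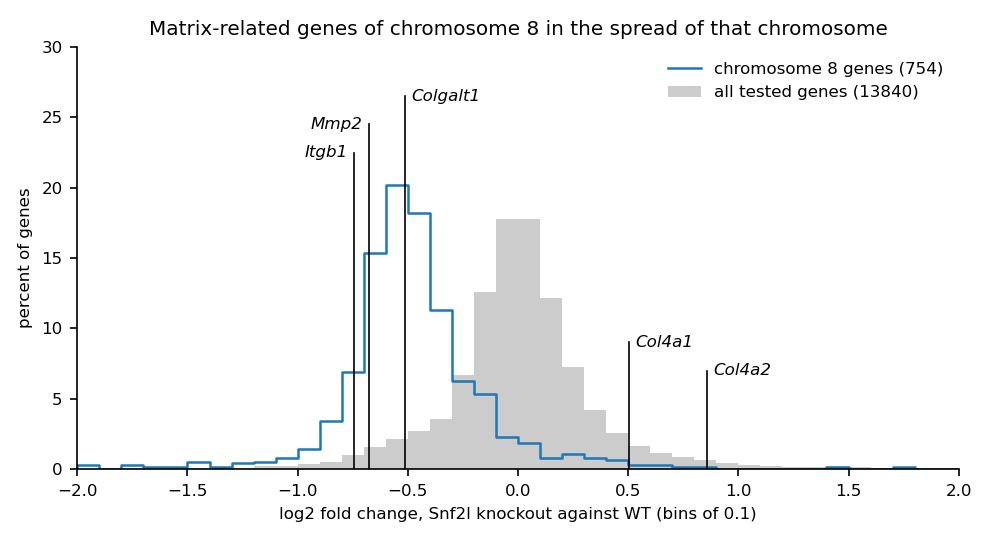
Distribution of log2 fold changes (knockout against WT, in bins of 0.1) as percent of genes, for the 754 tested genes of chromosome 8 (line) and all 13840 tested genes (grey). Col4a1 at 0.50 and Col4a2 at 0.86 lie in the right tail of chromosome 8, while Mmp2, Itgb1 and Colgalt1 lie within its bulk.

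Laminins are trimers of an α, a β and a γ chain. Of the chain genes only Lamb1 (β1) was called, with 1728 and 1667 WT counts against 2365 and 2221 knockout counts and a log2 fold change of 0.33 (SE 0.097). This call lay at the edge of the threshold and was lost when any library but knockout replicate 2 was left out, and with DESeq2. Lama1 (α1), with 1091 and 869 WT counts against 1564 and 1281 knockout counts, had a log2 fold change of 0.42 (SE 0.138) and was not called, although its libraries did not overlap. Without single libraries its value ranged from 0.19 (without WT replicate 2) to 0.69 (without WT replicate 1), and it was called without WT replicate 1 and without knockout replicate 2. For Lama5 and Lamc1 the log2 fold changes were 0.17 and 0.14, and those of both turned below 0 (-0.018 and -0.046) when knockout replicate 1 was left out. Lamc1 had 10127 and 9398 WT counts against 13080 and 10090 knockout counts, and once scaled for depth the lower knockout library lay between the WT libraries. Lamb2 (β2), the counterpart of Lamb1, was lower in both knockout libraries, with 26.2 ± 0.535 CPM in WT against 22.0 ± 0.504 CPM in knockout cells, and was not called (log2 fold change -0.25, SE 0.112).

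The ratios between chains moved with these values. Per length, Lamb1 stood at 2.93 and 2.58 times Lamb2 in WT and at 4.28 and 3.97 times in the knockout. Lama5 stood at 2.11 and 2.49 times Lama1 in WT and at 1.98 and 1.84 times in the knockout. Lamc1 exceeded Lamb1 in all libraries, by 7.03 and 6.76 times in WT and by 6.63 and 5.45 times in the knockout. The genotypes did not overlap in any of these ratios, and none was tested.

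Nidogens link the laminin and collagen IV networks. Nid1 had 2124 and 1945 WT counts against 3369 and 2523 knockout counts, with levels of 141 ± 20.6 and 189 ± 35.7 CPM and a log2 fold change of 0.42 (SE 0.125). Its call was lost when WT replicate 2 or knockout replicate 1 was left out, at log2 fold changes of 0.28 and 0.22, and with DESeq2. Nid2 was at 289 ± 15.0 CPM in WT against 327 ± 23.8 CPM in knockout cells and was not called (log2 fold change 0.18, SE 0.0895). Exons of Nid2 share 437 bases with those of Rtraf on the other strand, and the strand setting of the counting is not stated, so that reads of the pair may be mixed.

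The remaining basement membrane genes showed no call. Hspg2 (perlecan) had levels of 173 ± 48.6 CPM in WT against 202 ± 45.6 CPM in knockout cells, and its difference was smaller than its spread. Agrn had 228 ± 5.68 and 220 ± 23.6 CPM, and Col18a1 had 511 ± 17.3 and 554 ± 17.6 CPM. Without knockout replicate 1 the log2 fold change of Hspg2 went from 0.22 to -0.024.

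Over all tested genes, part of the spread between replicates ran with gene length. In both genotypes replicate 1 was higher than replicate 2 in genes over 10000 bp, by a median log2 difference of 0.17 in WT and 0.23 in the knockout, and in genes of up to 2000 bp these medians were -0.12 and -0.15. The 12 basement membrane genes had the same sign, with medians of 0.24 in both genotypes, but their median length was 7646.5 bp. In the length range that holds this value, the medians over all tested genes were only 0.053 in WT and 0.090 in the knockout. The difference between replicates in the basement membrane genes was thus larger than that of genes of similar length, and its cause was not tested. Of the 36 genes, 24 are over 6000 bp long. Between genotypes the median log2 fold change went from 0.051 in the shortest genes to -0.064 in the longest. With the length trend removed, which was decided on after the data had been seen, 14 matrix genes were called, the 12 above with Lama1 and Col5a1.

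In the interstitial group 10 of 14 genes were tested, and Col1a1, Col3a1 and Fbln1 were called higher in the knockout, the first pair of them as DEGs. No gene was called lower, where 4.0% of all tested genes were called higher and 5.21% lower. Of the 10 log2 fold changes 7 were positive, and the median of the 10 was 0.39. Col3a1 and Bgn are among these 7. They passed the filter only through the knockout libraries, so that their sign was implied by their being tested. Among all members, the 5 DEGs had under 20 CPM in WT, the range that holds 16 of the tested members. DEGs made up 1.90% of all 6327 tested genes in that range, 0.303% of the genes from 20 to 100 CPM and 0.0779% of those above, so that few abundant genes of any kind passed the threshold.

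Type I collagen, the main fibrillar collagen, is built from the chains of Col1a1 and Col1a2. Col1a1 (Entrez gene 12842, chromosome 11, 94936224 to 94953042) had 77 and 69 WT counts against 207 and 211 knockout counts, a change from 5.08 ± 0.817 to 13.5 ± 0.379 CPM and a log2 fold change of 1.41 (SE 0.162). Its partner Col1a2 had 22 and 33 WT counts against 43 and 34 knockout counts and was not called. Per length, the ratio of Col1a1 to Col1a2 was 6.47 and 3.87 in the WT libraries against 8.90 and 11.5 in the knockout libraries. The ratio was higher in both knockout libraries and was not tested.

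Col3a1 (Entrez gene 12825, chromosome 1, 45311538 to 45349706), the chain of type III collagen, had 4 and 8 WT counts against 29 and 42 knockout counts, or 0.408 ± 0.161 and 2.29 ± 0.626 CPM. The log2 fold change was 2.44 (SE 0.407), and the genotypes were far apart, although the WT level rests on 12 counts in all. The promoter window of Col3a1 is shown for contrast with those of the collagen IV pair, with the letters TATAAA in capitals.

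Col3a1, chr1:45311288-45311587, plus strand: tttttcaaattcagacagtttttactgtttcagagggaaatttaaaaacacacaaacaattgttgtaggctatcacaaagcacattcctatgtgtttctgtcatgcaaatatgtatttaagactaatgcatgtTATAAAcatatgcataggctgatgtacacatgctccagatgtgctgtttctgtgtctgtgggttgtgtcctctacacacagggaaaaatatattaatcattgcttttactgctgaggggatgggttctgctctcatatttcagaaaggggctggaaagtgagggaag

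This window holds 37.7% G and C, and neither CCAAT nor GGGCGG is present in it. TATAAA is present on either strand in 13.6% of all windows and in 4 of 30 windows (13.3%) that the table holds for 24 of the 36 genes, those of Col3a1, Postn and Tnc. GGGCGG was found in 73.3% of these 30 windows.

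The other fibrillar collagens were not called. Col5a1, which regulates fibril assembly, had 11.8 ± 1.72 CPM in WT against 15.5 ± 0.501 CPM in knockout cells, and was higher in both knockout libraries. Col5a2 had between 35 and 41 counts in all libraries. Per length, Col5a1 stood at 4.84 and 5.04 times Col5a2 in WT and at 7.21 and 7.81 times in the knockout. For both the type I and the type V pair, the α1 chain gene thus stood further above its partner in the knockout. Of the genes in these pairs only Col1a1 was called, and Col1a2 and Col5a2 had at most 43 counts in any library. Neither ratio was tested. Col6a1 and Col6a2, of the beaded filaments, had 13 counts or fewer per library.

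Fibronectin, to which integrins attach cells, was among the most abundant matrix transcripts, and it varied between replicates. Fn1 had 13325 and 11069 WT counts against 17958 and 12666 knockout counts, or 851 ± 182 and 984 ± 227 CPM. The genotypes overlapped in CPM, and the log2 fold change of 0.21 turned to -0.044 without knockout replicate 1. Exons of Fn1 share 292 bases with those of Apol7d on the other strand. Per length, Fn1 exceeded Col1a1 by 97.2 and 90.1 times in WT and by 48.7 and 33.7 times in the knockout.

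Fbln1 (fibulin-1), which binds fibronectin and elastic fibers, had 354 and 435 WT counts against 611 and 596 knockout counts. Its log2 fold change was 0.51 (SE 0.107), from 27.2 ± 1.68 to 38.9 ± 0.114 CPM. It was called in the full fit and not when WT replicate 1 was left out. Fbn1 (fibrillin-1, of microfibrils) had 4.26 ± 1.14 CPM in WT against 2.73 ± 0.734 CPM in knockout cells, with a log2 fold change of -0.63 (SE 0.254), and Fbln2 had 2.06 ± 0.414 and 1.48 ± 0.113 CPM, with -0.48 (SE 0.291). Neither was called. Bgn (biglycan) had 6 and 8 WT counts against 13 and 12 knockout counts, while its relatives Dcn and Lum had 2 counts or fewer.

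All 4 matricellular genes had a positive log2 fold change, and Tnc and Thbs1 were DEGs, where 0.571% of all tested genes were DEGs with a higher level. Tnc and Postn passed the filter only through the knockout libraries, so that their sign was implied by their being tested. Tnc (Entrez gene 21923, chromosome 4, 63959785 to 64047015) codes for tenascin-C, an oligomer found around migrating and remodeling tissue. It had 0 and 2 WT counts against 43 and 31 knockout counts. Both WT libraries were at or under the floor of 3 counts, and against this floor per library the knockout level was at least 11.4-fold higher. No other tested member had both WT libraries at the floor. One of the 2 windows that RefSeq gives for Tnc is shown, since it had the lowest WT level of the DEGs, with TATAAA in capitals.

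Tnc, chr4:64046966-64047265, minus strand: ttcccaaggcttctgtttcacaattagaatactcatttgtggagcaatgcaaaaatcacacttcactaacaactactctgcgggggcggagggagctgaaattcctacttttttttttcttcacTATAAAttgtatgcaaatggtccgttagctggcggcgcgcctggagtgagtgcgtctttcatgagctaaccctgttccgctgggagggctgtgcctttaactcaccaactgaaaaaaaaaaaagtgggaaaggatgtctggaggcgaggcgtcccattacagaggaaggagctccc

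This window holds 47.3% G and C, and the second one, which overlaps it, holds 54.0%. The same letters TATAAA are present in both.

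Thbs1 (thrombospondin-1, Entrez gene 21825, chromosome 2, 118111876 to 118127133), which binds cell surfaces and activates latent TGF-β, had 151 counts in each WT library and 401 and 310 counts in the knockout. Its level was 10.5 ± 0.877 CPM in WT against 22.9 ± 3.81 CPM in knockout cells, a log2 fold change of 1.13 (SE 0.147). Without knockout replicate 1 the log2 fold change of Thbs1 was 0.95, which is under the fold threshold for a DEG. Postn (periostin) had 5 and 3 WT counts against 15 and 10 knockout counts and was not called (log2 fold change 1.51, SE 0.534). Sparc, the abundant gene of the group, had 268 ± 14.4 CPM in WT against 291 ± 17.0 CPM in knockout cells, with a log2 fold change of 0.12 (SE 0.0886). The larger differences of this group lay in its low genes, of which Tnc and Postn passed the filter only through the knockout libraries. Over all tested genes, too, the median absolute log2 fold change was larger under 20 CPM in WT (0.24) than over 100 CPM (0.099).

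Among the 6 enzyme and inhibitor genes, Loxl2 and Timp2 were called higher and Mmp2 was called lower. Over all tested genes 4.0% were called higher and 5.21% lower, and 0.571% were DEGs with a higher level. Both knockout libraries lay above both WT libraries in 4 of the 6 and below in 2, where 25.2% of all tested genes lay above and 25.3% below. Lox passed the filter only through the knockout libraries, so that its higher level was implied by its being tested. Loxl2 (Entrez gene 94352, chromosome 14, 69608692 to 69695834), a lysyl oxidase that crosslinks collagen IV, was a DEG, with 62 and 66 WT counts against 170 and 182 knockout counts, or 4.43 ± 0.176 and 11.3 ± 0.713 CPM (log2 fold change 1.36, SE 0.163). Its relative Lox, which acts on fibrillar collagen and elastin, had 4 and 6 counts in WT and 14 in each knockout library, and its log2 fold change of 1.36 (SE 0.470) was not called. Per length, the ratio of Loxl2 to Lox was 13.7 and 9.72 in the WT libraries against 10.7 and 11.5 in the knockout libraries, and the genotypes overlapped.

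Mmp2 (gelatinase A, Entrez gene 17390), a protease that degrades denatured collagen and collagen IV, was the only member called lower. It had 186 and 215 WT counts against 125 and 144 knockout counts, or 13.8 ± 0.257 and 8.67 ± 0.992 CPM, with a log2 fold change of -0.68 (SE 0.145). Mmp2 lies on chromosome 8, at 92827290 to 92853421, and its log2 fold change was 0.17 below the median of that chromosome. Of the 754 tested genes there, 617 had a higher log2 fold change. Once the chromosome 8 shift had been taken out, Mmp2 stood at -0.17 and was not called. Leaving out single libraries placed it between -0.29 and -0.073 relative to the chromosome.

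The inhibitors of the metalloproteinases differed among themselves. Timp2, which also takes part in the activation of pro-Mmp2, had 37 and 41 WT counts against 78 and 63 knockout counts (log2 fold change 0.75, SE 0.215). The call of Timp2 was lost with DESeq2 and when any library but knockout replicate 2 was left out. Timp1 had 21.8 ± 1.73 and 19.1 ± 1.46 CPM, and Timp3, which stays bound to the matrix, had 9.54 ± 0.813 and 12.3 ± 2.37 CPM. Neither was called. Exons of Timp3 share 1733 of 8144 bases with Syn3 on the other strand. Per length, Timp1 stood at 6.39 and 5.56 times Mmp2 in WT and at 8.62 and 8.17 times in the knockout. Timp1 itself was lower in both knockout libraries, and Mmp2 was not called once the chromosome 8 shift had been taken out. The ratio was not tested.

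A further 167 matrix-related genes in 6 lists were examined beside the 36. These lists were filled by known role in the matrix, but also with earlier results of these data known, so that they are no independent check of the 36. Of 120 that passed the filter, 16 were called higher in the knockout and 7 lower, and 6 were DEGs, all of them higher. Some of the 120 passed the filter through 1 genotype only. Among the genes named below, these were Col4a5, Thbs2 and Thbs4 through the knockout and Colgalt2 and Comp through WT. A difference of these genes was implied by their being tested. The median log2 fold change over the 120 was 0.17. On chromosome 8 lay 7 of the 120, of which 0 were called higher and 2 lower, and elsewhere 16 were called higher and 5 lower of 113. These counts stand beside the 4.0% and 5.21% of all tested genes called higher and lower. DEGs made up 0.990% of all tested genes, 0.571% as higher and 0.419% as lower.

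**Figure D5:**
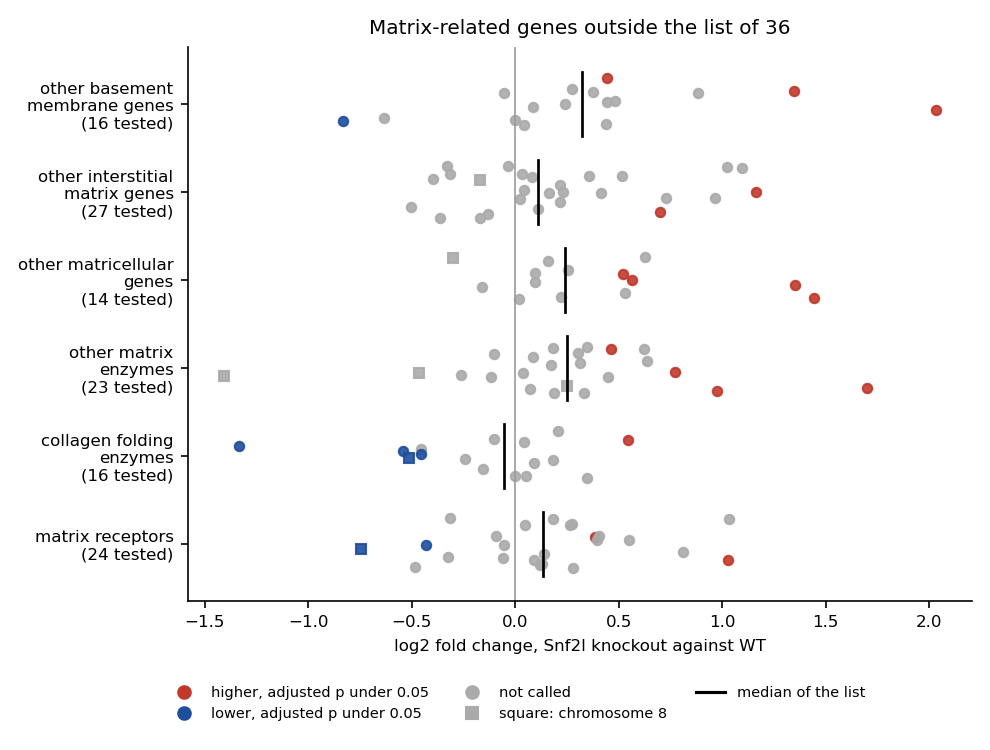
Log2 fold change (knockout against WT) of 120 tested matrix-related genes outside the set of 36, in 6 lists, with points colored by call, squares for chromosome 8 genes and a bar at the median of each list. The medians lay between -0.05 in the collagen folding enzymes and 0.32 in the other basement membrane genes.

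Among the other basement membrane genes, 3 of 16 were called higher and 1 lower, with a median of 0.32. Col4a5, the α5 chain of collagen IV on chromosome X, had 11 and 7 WT counts against 41 and 39 knockout counts (log2 fold change 2.03, SE 0.342). Tinagl1, a matrix protein that binds integrins, had a log2 fold change of 1.35 (with SE 0.275 and edgeR adjusted p = 5.65e-03). Ntn1 (netrin-1), a laminin-related guidance protein, fell from 62.3 ± 4.05 to 34.9 ± 3.91 CPM (log2 fold change -0.83, edgeR adjusted p = 2.62e-04).

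Among the other interstitial genes 2 of 27 were called, both higher, with a median of 0.11. Tgfbi, a collagen-binding protein induced by TGF-β, rose from 8.60 ± 1.04 to 19.3 ± 0.830 CPM (log2 fold change 1.16, edgeR adjusted p = 1.54e-04), and Ecm1 had a log2 fold change of 0.70 (with SE 0.196 and edgeR adjusted p = 0.0361). Exons of Ecm1 share 63 bases with Mir7014 on the same strand.

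Of the other matricellular genes 4 of 14 were called higher and 0 lower, with a median of 0.24. They were Ccn4, with 20 and 16 WT counts against 49 and 50 knockout counts (log2 fold change 1.35, edgeR adjusted p = 5.41e-03), Thbs2 (1.44, with 10 and 8 WT counts), Ccn1 (0.56, edgeR adjusted p = 4.27e-03) and the proteoglycan Spock2 (0.52, edgeR adjusted p = 0.0237). The other thrombospondin genes of this list were not called, Thbs3 at -0.16, Thbs4 at 0.53 and Comp at -0.30.

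Of the other matrix enzymes and inhibitors 4 of 23 were called higher and 0 lower, with a median of 0.25. Bmp1, the protease that trims the ends of procollagens and activates lysyl oxidase, had 54 and 45 WT counts against 177 and 169 knockout counts (log2 fold change 1.70, with SE 0.181 and edgeR adjusted p = 5.43e-05). Htra1, a secreted protease, had a log2 fold change of 0.77 (edgeR adjusted p = 1.45e-03), and Tgm2, a crosslinking transglutaminase, one of 0.46 (edgeR adjusted p = 0.0418). Exons of Tgm2 share 370 bases with Rprd1b on the other strand.

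The enzymes that modify and fold collagen in the endoplasmic reticulum were examined as a list of their own. Of 16 tested, 1 was called higher and 4 lower, with a median of -0.05. P4ha1, a subunit of prolyl 4-hydroxylase, rose from 23.4 ± 0.643 to 34.2 ± 0.956 CPM (log2 fold change 0.55, edgeR adjusted p = 4.67e-03). Fkbp10 and P3h4, which act with lysyl and prolyl hydroxylases, had log2 fold changes of -0.45 (edgeR adjusted p = 9.30e-03) and -0.54 (edgeR adjusted p = 0.020), and Colgalt2, a collagen galactosyltransferase, one of -1.33 (with 10 and 12 knockout counts). Colgalt1, its more abundant counterpart on chromosome 8, fell from 151 ± 5.89 to 106 ± 1.55 CPM (log2 fold change -0.51, edgeR adjusted p = 1.89e-03), which is close to the median of that chromosome. Exons of Colgalt1 share 495 of 4326 bases with Unc13a on the other strand.

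Of the 24 tested receptors for matrix proteins, 2 were called higher and 2 lower, with a median of 0.14. Itgb1, the β1 chain shared by most integrins that bind laminin, collagen and fibronectin, lies on chromosome 8 and had 4489 and 4665 WT counts against 2991 and 2887 knockout counts. Its log2 fold change was -0.74 (with SE 0.0873 and edgeR adjusted p = 1.18e-04), which was 0.24 below the median of its chromosome, and it was not called with the chromosome 8 shift removed. Itga3, an α chain of laminin receptors, rose from 97.5 ± 6.90 to 127 ± 6.79 CPM (log2 fold change 0.38, edgeR adjusted p = 0.0186). Itga9 had a log2 fold change of -0.43 (edgeR adjusted p = 0.0498), and the syndecan gene Sdc3 was a DEG at 1.03 (edgeR adjusted p = 7.31e-03). The call of Tgm2 was lost without any single library, that of Colgalt2 without any but knockout replicate 2 and that of Itga9 without any but knockout replicate 1. Calls were also lost for Ecm1 and Spock2 without WT replicate 1, for Thbs2 without knockout replicate 1, and for Spock2, Thbs2, Tinagl1, Ccn4, P3h4 and Itga3 without WT replicate 2.

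Markers of other cells that make matrix were examined beside these values. Of 9 fibroblast markers that are not members, 4 were tested and 0 were called, and their summed level was 27.5 and 25.1 CPM in the WT libraries against 30.3 and 29.7 CPM in the knockout libraries. Most of this sum was Pdpn, at 18.3 CPM in both genotypes. Both knockout libraries lay above both WT libraries for Pdgfrb, at 1.68 ± 0.434 and 3.09 ± 0.592 CPM, and for Thy1, at 4.61 ± 1.17 and 6.31 ± 0.0925 CPM. This held for 25.2% of all tested genes. Twist1 and Pdpn, the other tested markers of this list, overlapped between genotypes. The part of the fibroblast markers in the collagen differences was not tested. Fap had 0 counts in all libraries, and Prrx1 and Tcf21 had 0 counts in WT and at most 4 in a knockout library. Of 10 markers of extraembryonic endoderm that are not members, 6 were tested and 4 were called higher, namely Gata4, Gata6, Dab2 and Pdgfra. Over all tested genes 4.0% were called higher. Sox17 (log2 fold change 0.92) and Sox7 (0.34) were tested and not called, and Sox7 overlapped between genotypes. The summed level of all 10 was 17.6 and 16.4 CPM in the WT libraries against 28.0 and 28.3 CPM in the knockout libraries. Afp had 0 counts throughout and Ttr had 1 count in all 4 libraries together. This summed level was higher in both knockout libraries, as were the levels of the collagen IV genes, Lama1, Lamb1 and Sparc, members that are endoderm markers too. Of these Lama1 and Sparc were not called, and Lamc1, on the same marker list, overlapped between genotypes. The part of the endoderm markers in those differences was not tested.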

How the data were processed

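Poly(A) RNA-seq of 4 libraries was analysed from the table that the authors deposited, which holds raw read counts per Entrez gene for each library and, as a further value, the gene length in bp. Per the submitters' processing notes and the study's methods, reads were aligned to mm10 with HISAT2 through QuasR and counted over UCSC Known Genes. The labels name a stranded TruSeq kit and the methods an unstranded one, and the strand setting of the counting is not given in the sources used here.

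Symbols and positions of 24570 of 24594 genes came from RefSeq (GRCm38.p6) by Entrez identifier. The 24 unmatched genes hold 0.139% of counts. The test was that of edgeR 4.0.16 under R 4.3.3 (filterByExpr with a minimum count of 10, TMM, glmQLFit and glmQLFTest in legacy form, genotype as the only term, two-sided, Benjamini-Hochberg over 13840 genes). The threshold of 0.01 with an absolute log2 fold change over 1 defines a DEG, as in the study's methods. CPM used TMM-scaled library sizes, TPM used the deposited lengths, SE came from the F statistic, and SD is over 2 libraries. Floors of 3 counts cover counting error only. The libraries held 13771642 to 15608803 counts, the biological coefficient of variation was 7.45%, and replicates differed by more than sampling noise (chi-square per degree of freedom 5.21 in WT and 7.42 in the knockout). P-values measure the spread between these libraries.

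The members and all gene lists were chosen with earlier results of these data known. Members with at least 50 CPM in a genotype, those called, those on chromosome 8 and those at the floor are named with values. Of the other lists, every DEG, up to 3 further called genes per list and each called gene of chromosome 8 are named. Some called genes that this rule selects are counted but not reported by name here. Other members named with values, overlapping genes and markers were chosen after their values were seen. The script was tested on simulated data. DESeq2 1.42.0, the edgeR 4 form of the fit, looser and stricter filters, scaling by RLE, by upper quartile or by library size, the replicate number as a block, the chromosome 8 shift removed, each library left out and, added after seeing the data, the length trend removed were the alternatives.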

Additional observations from a re-analysis of the deposited data

How the results depend on the processing

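Of 763 log2 fold changes of the 55 named genes that passed the filter, computed under the alternatives, 671 kept their direction and their side of the threshold, 58 lost their call, 24 gained one, 6 changed sign and 4 had no adjusted p-value from DESeq2. All 6 sign changes came from leaving out 1 library. Over the libraries left out, log2 fold changes ranged from -0.018 (without knockout replicate 1) to 0.35 for Lama5, from -0.046 (without knockout replicate 1) to 0.30 for Lamc1, from -0.044 (without knockout replicate 1) to 0.45 for Fn1 and from -0.16 to 0.053 (without knockout replicate 2) for Agrn. Those of Hspg2 ranged from -0.039 (without WT replicate 2, and -0.024 without knockout replicate 1) to 0.54. These genes were not called in the full fit. The calls of Lamb1, Nid1 and Timp2 were also lost with 1 count in total as the filter and with the chromosome 8 shift removed.

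Matrix members called numbered 12, with a range of 10 to 18 when each library was left out and 9 with DESeq2. Their DEGs numbered 5, with 4 to 6 when each library was left out, 3 with at least 10 counts in every library, since Tnc and Col3a1 are then not tested, and 7 with the chromosome 8 shift removed. Other matrix-related genes called numbered 23, with 14 to 28 when each library was left out (14 without WT replicate 2) and 14 with DESeq2. Their DEGs numbered 6, with 5 to 7 when each library was left out and 3 both with DESeq2 and with the chromosome 8 shift removed. The cause was not tested. The median of the basement membrane members ranged from 0.095 to 0.38 and that of the interstitial members from 0.33 to 0.58 when each library was left out, and the distances from the chromosome 8 median from 0.89 to 1.10 for Col4a1, from 1.18 to 1.52 for Col4a2 and from -0.29 to -0.073 for Mmp2.

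With the replicate number as a block, 23 members (20 higher, 3 lower, all 12 above among them) and 46 other matrix-related genes were called, and 3471 of all tested genes against 1274. Deviations of same-numbered libraries correlated at 0.20 over 2 pairs, which does not establish a pairing. Over all genes DESeq2 called 799 and gave no adjusted p-value for 1074, and with the chromosome 8 shift removed 662 were called, 67.2% of them higher against 43.4% in the full fit. Genes with few counts in WT, such as Tnc, Postn and Lox, are limited by depth.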
